A study of Mus musculus with 2 samples.

Results

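Early lymphoid priming was followed through 10 genes of the 31053 in the deposited matrix, which are Flt3, Dntt, Rag1, Rag2, Il7r, Satb1, Cd52, Ighm, Notch1 and Ikzf1. The 10 symbols were listed by name, and all were found in the matrix. The cells were LSK cells (lineage-negative, Sca-1-positive, c-Kit-positive), the bone marrow fraction that holds hematopoietic stem cells and multipotent progenitors. They were sorted from female C57BL/6JRj mice in 2 age groups, young mice of 3 to 5 months and old mice of 22 to 28 months, with the cells of 4 mice of an age in 1 library and no genetic change or treatment in either group. CITE-Seq counts, in each cell, both transcripts and DNA-tagged antibodies on the cell surface as unique molecular identifiers (UMIs). Each cell barcode ends in 1 or 2, 1 suffix per library, and the sources used here pair neither suffix with an age. Young and old cells were therefore not compared, and the libraries of suffix 1 and suffix 2 are given side by side. With 1 library per age group no value has a replicate, no test was run, and differences between the suffixes may be age, library or both.

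Lymphoid priming is the low, graded transcription of lymphoid genes in progenitors that can still form several blood lineages. It is known best from progenitors with the receptor tyrosine kinase FLT3 on their surface, which lose megakaryocyte and erythroid potential early and begin to transcribe the genes of antigen receptor assembly before they commit to the B or T lineage. The long-term stem cell lies at the other end of the LSK fraction and is recognised by CD150 on its surface without CD48.

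Cells with under 10% mitochondrial UMIs and over 1500 genes were kept, which left 4068 of 4688 cells, 1524 of suffix 1 and 2544 of suffix 2, and no barcode sequence occurred under both suffixes. The kept cells held 71367333 UMIs, and the median cell had 15023.5 UMIs in suffix 1 and 14766.5 in suffix 2. Kit was found in 83.2% and Ly6a, which encodes Sca-1, in 91.7% of them, while the T cell gene Cd3e and the neutrophil gene Ly6g were at 0 UMIs. Tag values were present for 3986 kept cells. These were split into 4 gates within each suffix, at the 75th percentile of the CD150 tag and the 25th percentile of the CD48 tag. The thresholds were 40 CD150 tags and 224 CD48 tags in suffix 1, and 407 CD150 tags and 42 CD48 tags in suffix 2, so a gate of the same name does not hold cells of the same tag count in both suffixes. The CD150-high CD48-low gate held 172 and 383 cells, the CD150-low CD48-low gate 204 and 250, the CD150-high CD48-high gate 209 and 241, and the CD150-low CD48-high gate 912 and 1615. Slamf1, the gene of CD150, was at 16.9 and 64.2 UMIs per 1000000 UMIs of the same cells (CPM) in the CD150-high CD48-low gate and at 0.397 and 2.53 CPM in the CD150-low CD48-high gate, and Cd48 was at 0.888 and 1.52 CPM against 97.7 and 134 CPM. In every pair of values here suffix 1 comes before suffix 2.

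Of the 4068 kept cells, 12 carried 33.4% to 65.5% of their UMIs on immunoglobulin genes other than Ighm, and the next highest cell 0.191%. These 12 cells, 2 of suffix 1 and 10 of suffix 2, held the plasma cell genes Sdc1 and Xbp1 in 12 of 12, Kit in 7 and Flt3 in 4. They lay in the CD150-low CD48-high gate (11 cells) and the CD150-low CD48-low gate (1 cell). They held 84.0% of all Ighm UMIs and 8.77% of all Cd52 UMIs, at most 0.275% of the UMIs of any of the other 8 genes, and are called immunoglobulin-rich below. Values of Ighm and Cd52 are given with and without them where they differ.

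In the GENCODE vM21 annotation of GRCm38, the build named in the submitters' processing notes, the 10 genes lie at 10 places on 8 chromosomes. Rag1 (chr2:101638282-101649501, minus strand) and Rag2 (chr2:101624718-101632529, plus strand) are neighbours whose 3′ ends face each other at 5752 bp. The gene model B230118H07Rik spans both, on the strand of Rag1 and opposite to Rag2. Cd52 (chr4:134082448-134095082) overlaps Crybg2 on the other strand over 10057 bp. Models on the same strand also overlap Satb1, over 1992 to 4801 bp each, and Notch1, over 61 bp. Reads in overlaps on the same strand may be assigned to a single partner or dropped. The other genes are Flt3 (chr5:147330741-147400489), Dntt (chr19:41029275-41059525), Il7r (chr15:9505788-9530176), Satb1 (chr17:51736187-51833290), Ighm (chr12:113418558-113422730), Notch1 (chr2:26457903-26516663) and Ikzf1 (chr11:11685003-11772926).

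The start-site windows of 4 genes are shown because the results turn on them: Flt3, which orders the cells, and Dntt, Rag2 and Il7r, which are among the genes lowest in cells of few Flt3 UMIs. Each window is 300 bases long, 250 before and 50 after a RefSeq start site on GRCm38.p6, written 5′ to 3′ on the strand of the gene. The window of Il7r lies inside the GENCODE span given above, which begins further upstream, and its last 25 bases matched no GENCODE transcript, while those of the other 3 matched in sense. Capitals mark CANNTG, the E-box that basic helix-loop-helix factors such as E2A can bind, which reads the same on both strands.
Flt3, chr5:147400440-147400739, minus strand: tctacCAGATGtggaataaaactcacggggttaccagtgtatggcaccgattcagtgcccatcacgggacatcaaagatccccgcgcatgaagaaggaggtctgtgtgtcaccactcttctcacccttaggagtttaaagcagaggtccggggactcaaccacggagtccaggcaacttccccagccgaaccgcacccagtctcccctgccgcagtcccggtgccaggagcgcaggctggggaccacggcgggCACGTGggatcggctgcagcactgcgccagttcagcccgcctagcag
Dntt, chr19:41029025-41029324, plus strand: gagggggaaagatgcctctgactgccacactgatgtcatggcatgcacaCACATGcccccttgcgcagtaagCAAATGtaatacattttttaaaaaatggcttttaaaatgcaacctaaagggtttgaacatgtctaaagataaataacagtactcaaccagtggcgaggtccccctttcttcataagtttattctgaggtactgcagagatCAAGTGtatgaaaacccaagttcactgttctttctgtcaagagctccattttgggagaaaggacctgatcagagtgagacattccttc
Rag2, chr2:101624462-101624761, plus strand: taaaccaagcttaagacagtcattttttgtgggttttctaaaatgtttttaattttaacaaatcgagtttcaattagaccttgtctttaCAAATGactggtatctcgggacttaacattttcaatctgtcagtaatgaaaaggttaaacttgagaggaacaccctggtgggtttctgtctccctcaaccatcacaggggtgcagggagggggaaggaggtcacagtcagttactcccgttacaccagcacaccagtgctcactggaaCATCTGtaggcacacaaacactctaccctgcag
Il7r, chr15:9529827-9530126, minus strand: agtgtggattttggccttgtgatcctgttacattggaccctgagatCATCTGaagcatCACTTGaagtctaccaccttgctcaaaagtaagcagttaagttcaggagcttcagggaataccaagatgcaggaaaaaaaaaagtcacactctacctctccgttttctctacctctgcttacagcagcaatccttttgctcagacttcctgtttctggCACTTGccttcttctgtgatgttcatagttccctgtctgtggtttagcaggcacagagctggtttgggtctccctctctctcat
The windows of Flt3 and Rag2 held 2 E-boxes each and those of Dntt and Il7r held 3 each. An E-box was found in 72.3% of the 32851 RefSeq promoter windows, with a median of 1, so its presence does not set these genes apart. Rag1 had 4 and the windows of Satb1 had 1, 0, 5, 1 and 1, while Notch1 and both windows of Ikzf1 had 0. The Notch1 window (chr2:26503773-26504072) lies inside the GENCODE span of its gene. The last 25 bases of the Rag1 window, like those of some windows of Ikzf1 and Satb1, matched no GENCODE transcript. The Ikaros core GGGAA, searched on both strands and found in 62.7% of all windows, occurred in the 4 printed windows 1, 1, 1 and 2 times in the order above. A Runx motif (TGTGGT, 16.8% of all windows) occurred in the printed windows in that of Il7r alone, and the E-box core CAGGTG (20.2%) in none of the 4. Windows were found for 8 of the 10 genes. These are matches of letters and not measured binding.

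The receptor genes of the list are Flt3, Il7r and Notch1. Flt3 encodes the receptor of FLT3 ligand, a growth factor of multipotent and lymphoid progenitors. Its level in the CD150-high CD48-low gate was 13.3 CPM (95% interval 8.99 to 19.0) in suffix 1 and 2.09 CPM (1.04 to 3.74) in suffix 2. In the CD150-low CD48-high gate it was 255 CPM (248 to 263) and 145 CPM (141 to 149), the highest of the 4 gates in both suffixes. The ratio of these gates was 19.2 (13.4 to 28.4) in suffix 1 and 69.4 (38.8 to 139) in suffix 2. The intervals are exact Poisson for levels and conditional binomial for ratios, and they cover counting error alone. Between these ends lay the CD150-low CD48-low gate at 151 and 17.4 CPM and the CD150-high CD48-high gate at 71.3 and 24.1 CPM. The order of this pair differed between the suffixes, and in suffix 2 their intervals overlapped. A Flt3 UMI was found in 88.7% and 65.9% of the cells of the CD150-low CD48-high gate, at a median of 16356 and 16320 UMIs per cell. In the CD150-high CD48-low gate, where the receptor is expected to be low, it was found in 14.0% and 2.87%, at 12917 and 13477 UMIs per cell. Thinned to 9000 UMIs per cell, which left out 243 kept cells below that depth, the shares were 78.0% and 54.7% against 8.97% and 1.38%.

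Il7r encodes the alpha chain of the interleukin-7 receptor, on which B and T cell development depends and which marks the common lymphoid progenitor. In all kept cells it had 233 UMIs in 69 cells. The CD150-low CD48-high gate held 114 and 118 of these UMIs, 6.46 CPM (5.33 to 7.76) and 3.83 CPM (3.17 to 4.58), and the CD150-high CD48-high gate held 1 and 0. Both CD48-low gates held 0 UMIs in both suffixes, which in the CD150-high CD48-low gate allows a share of up to 1.74% and 0.783% of cells with a UMI. With the empty gate set at 3 UMIs per library, Il7r was at least 4.85-fold and at least 6.72-fold higher in the CD150-low CD48-high gate than in the CD150-high CD48-low gate. The share of cells with a UMI in the CD150-low CD48-high gate was 4.39% and 1.73%, and 2.96% and 0.900% when thinned. The top 1% of all cells by Il7r held 86.3% of its UMIs. With a UMI in only 69 cells this share is largely set by how rarely the gene was detected, and low levels in other cells cannot be told from 0.

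Notch1 encodes a receptor that directs progenitors to the T lineage in the thymus. It was present in every gate, at 22.2 and 22.4 CPM in the CD150-high CD48-low gate, 30.9 and 18.4 CPM in the CD150-low CD48-low gate and 27.3 and 19.8 CPM in the CD150-high CD48-high gate, and these levels overlapped within their intervals in each suffix. In the CD150-low CD48-high gate it was 53.9 CPM (50.5 to 57.4) and 32.7 CPM (30.7 to 34.8). The ratio to the CD150-high CD48-low gate was 2.43 (1.82 to 3.29) in suffix 1 and 1.46 (1.20 to 1.78) in suffix 2, so a 2-fold difference was met in suffix 1 alone. A Notch1 UMI was found in 27.3% and 24.5% of the CD150-high CD48-low cells and in 54.1% and 35.0% of those of the CD150-low CD48-high gate, and when thinned in 21.8% and 17.4% against 32.2% and 21.9%.

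The genes of antigen receptor assembly are Dntt, Rag1 and Rag2. Dntt encodes terminal deoxynucleotidyl transferase, which adds nucleotides at the joints of rearranged receptor genes. In the CD150-high CD48-low gate it had 3 and 8 UMIs, 1.33 CPM (0.275 to 3.89) and 1.52 CPM (0.656 to 2.99). In the CD150-low CD48-high gate it had 7917 and 7665 UMIs, 449 CPM (439 to 459) and 249 CPM (243 to 254), a ratio of 337 (115 to 1634) and 164 (83.0 to 379). The myeloid gene Mpo, with 2 and 9 UMIs in the CD150-high CD48-low gate, had ratios of 156 and 176, within the intervals of Dntt. The CD150-low CD48-low gate separated the suffixes. It held 38.4 CPM (31.1 to 46.8) in suffix 1 and 1.74 CPM (0.564 to 4.05) in suffix 2, the latter within the interval of the CD150-high CD48-low gate. The CD150-high CD48-high gate held 51.1 and 10.8 CPM. A Dntt UMI was found in 54.7% and 33.4% of the cells of the CD150-low CD48-high gate (48.7% and 28.4% thinned) and in 1.74% and 2.09% of the CD150-high CD48-low gate (1.28% and 1.38% thinned). Dntt was unevenly spread, since the top 10% of cells by Dntt held 87.5% of its UMIs and the highest cell held 210, while for Flt3 the top 10% held 46.0%.

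Rag1 and Rag2 encode the recombinase that cuts the receptor genes, and both were rare. Rag2 had 164 UMIs in 100 cells, of which 92 and 71 UMIs lay in the CD150-low CD48-high gate (5.22 and 2.30 CPM), 1 in the CD150-high CD48-high gate of suffix 2, and 0 in either CD48-low gate. It was at least 3.92-fold and at least 4.04-fold higher in the CD150-low CD48-high gate than in the CD150-high CD48-low gate. Its share of cells in the CD150-low CD48-high gate was 6.36% and 2.54%, and 2.96% and 1.22% when thinned. Rag1 had 17 UMIs in 13 cells, 11 and 4 of them in the CD150-low CD48-high gate and 2 in the CD150-high CD48-high gate of suffix 1. At this depth no difference in Rag1 between gates was detectable, because its level in the CD150-low CD48-high gate (0.624 and 0.130 CPM) is below the level of 3 UMIs in the CD150-high CD48-low gate (1.33 and 0.570 CPM).

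The nuclear factors of the list are Satb1 and Ikzf1. Satb1, a chromatin organiser that favours lymphoid over myeloid output of progenitors, was at 11.1 CPM (7.18 to 16.4) and 2.28 CPM (1.18 to 3.98) in the CD150-high CD48-low gate. It was at 59.8 and 10.4 CPM in the CD150-low CD48-low gate, 41.0 and 11.9 CPM in the CD150-high CD48-high gate, and 139 and 96.8 CPM in the CD150-low CD48-high gate. The ratio of the last gate to the CD150-high CD48-low gate was 12.5 (8.47 to 19.4) and 42.5 (24.3 to 82.3). In suffix 1 the gates came in the order they had for Flt3, and in suffix 2 the intervals of both middle gates overlapped, as they did for Flt3. A Satb1 UMI was found in 71.6% and 52.4% of the cells of the CD150-low CD48-high gate (59.8% and 39.6% thinned) and in 12.8% and 2.87% of the CD150-high CD48-low gate (8.97% and 1.93% thinned).

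Ikzf1 encodes Ikaros, a zinc-finger factor needed for lymphoid development and already active in stem cells. It was the most evenly spread of the 10 genes, with a UMI in 72.5% of all kept cells and 34.4% of its UMIs in the top 10% of cells. Its level was 70.6 CPM (60 to 82.5) and 50.3 CPM (44.4 to 56.8) in the CD150-high CD48-low gate, 110 and 71.2 CPM in the CD150-low CD48-low gate, 98.0 and 58.5 CPM in the CD150-high CD48-high gate, and 136 and 103 CPM in the CD150-low CD48-high gate. The ratio of the last to the CD150-high CD48-low gate was 1.92 (1.64 to 2.27) and 2.04 (1.80 to 2.32), with intervals that overlap between the suffixes. A UMI was found in 55.2% and 47.3% of the CD150-high CD48-low cells and in 86.5% and 78.1% of the CD150-low CD48-high gate, and when thinned in 41.0% and 35.0% against 69.1% and 58.0%.

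The remaining members are Cd52 and Ighm. Cd52 encodes a small glycoprotein anchored in the membrane of lymphocytes. Without the immunoglobulin-rich cells it was at 24 CPM (18.0 to 31.3) and 2.66 CPM (1.45 to 4.46) in the CD150-high CD48-low gate, 145 and 27.1 CPM in the CD150-low CD48-low gate, 92.6 and 31.5 CPM in the CD150-high CD48-high gate, and 261 and 251 CPM in the CD150-low CD48-high gate. With these cells the CD150-low CD48-low gate of suffix 1 was at 192 CPM and the CD150-low CD48-high gate at 263 and 285 CPM. The ratio of the last to the first of these gates was 10.9 (8.33 to 14.5) and 94.5 (56.3 to 173), and with the immunoglobulin-rich cells 11 (8.40 to 14.6) and 107 (63.8 to 196). Cd52 was found in 89.0% and 78.7% of the cells of the CD150-low CD48-high gate (80.6% and 70.2% thinned) and in 22.1% and 3.13% of the CD150-high CD48-low gate (18.6% and 2.20% thinned).

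Ighm is the constant region gene of the IgM heavy chain, which lymphoid progenitors transcribe from the locus before it is rearranged. With all cells its level in the CD150-low CD48-high gate was 342 and 785 CPM, and in the CD150-low CD48-low gate 2090 and 17.7 CPM, the former from the lone immunoglobulin-rich cell there. Without these cells Ighm was at 4.44 CPM (2.13 to 8.17) and 12.5 CPM (9.69 to 15.9) in the CD150-high CD48-low gate, 27.3 and 17.7 CPM in the CD150-low CD48-low gate, 26.6 and 19.6 CPM in the CD150-high CD48-high gate, and 153 and 85.7 CPM in the CD150-low CD48-high gate. The ratio of the last to the first was 77.1 and 62.7 with these cells and 34.6 (18.8 to 72.2) and 6.84 (5.35 to 8.86) without them. In suffix 2 the light chain gene Igkc had 63.4 to 88.2 CPM in each gate without the immunoglobulin-rich cells, in 59.8% to 67.3% of cells, against 0.444 to 2.04 CPM in suffix 1. The part of Igkc-like background in the Ighm counts of suffix 2 was not tested. An Ighm UMI was found in 51.9% and 35.8% of the CD150-low CD48-high cells (43.7% and 27.0% thinned) and in 5.81% and 14.9% of the CD150-high CD48-low cells (4.49% and 11% thinned). The share of the CD150-low CD48-high gate was thus above that of the CD150-high CD48-low cells in both suffixes. Whether the Ighm UMIs of the CD150-high CD48-low cells come from those cells was not tested. Ighd, the IgD constant gene next to Ighm, had 44 and 29 UMIs in the CD150-low CD48-high gate and 0 in the other gates of both suffixes.

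**Figure D1:**
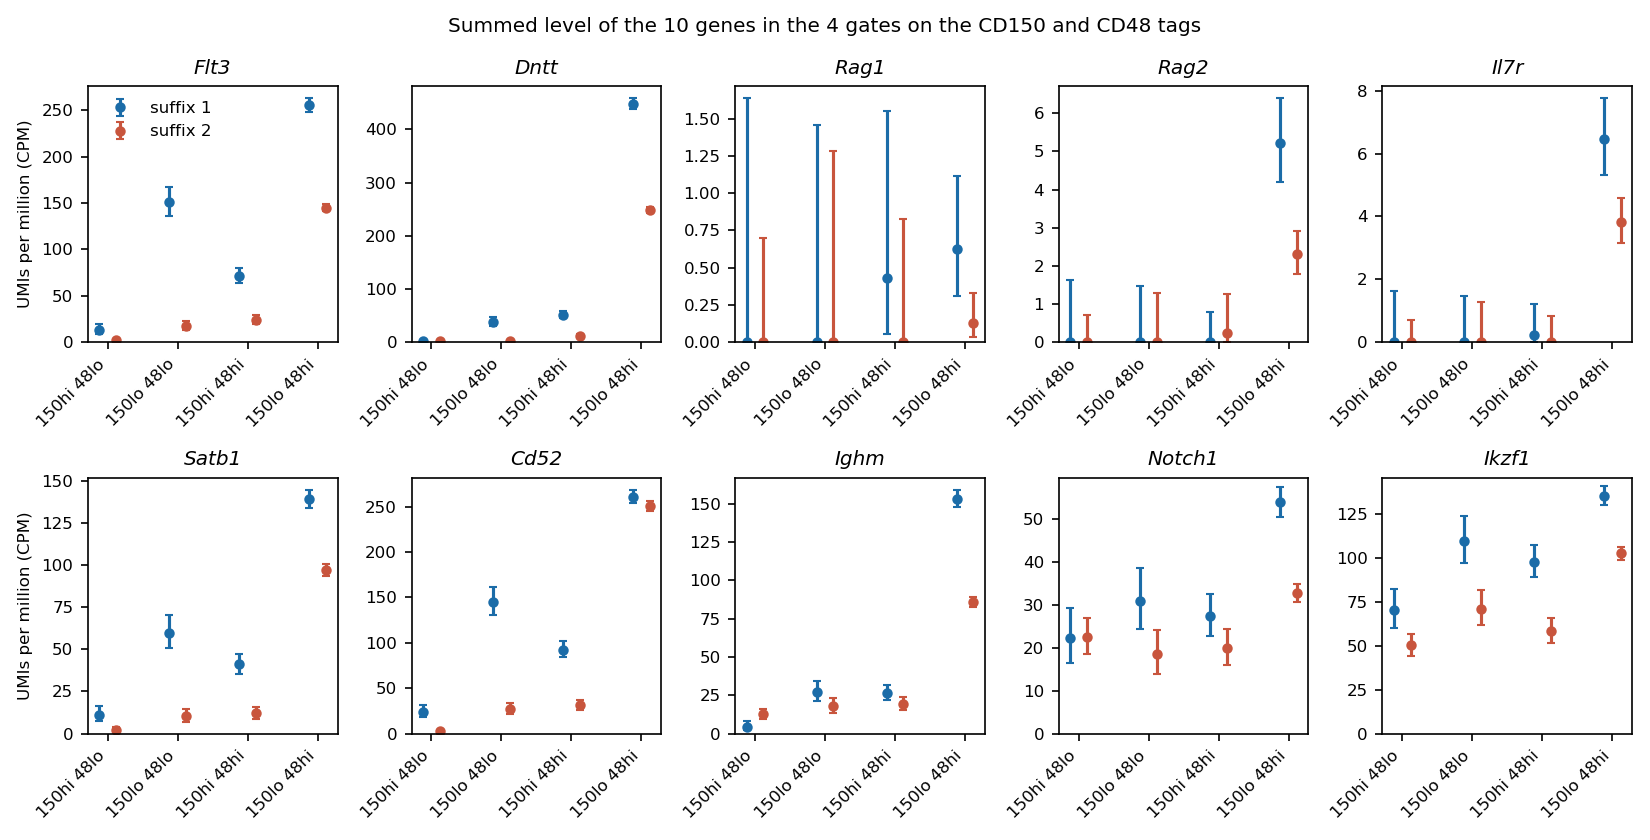
Summed level of each gene in CPM (vertical axis, linear, a separate scale for each gene) in the 4 gates on the CD150 and CD48 tags (horizontal axis, hi for high and lo for low), for the libraries of suffix 1 and suffix 2. The panels of Ighm and Cd52 leave out the 12 immunoglobulin-rich cells, and the panels of the other genes include them. Points are levels and bars are 95% Poisson intervals for counting error. The CD150-low CD48-high gate on the right of each panel is the highest in both suffixes for 9 genes, and for Rag1, with 17 UMIs in all kept cells, the intervals overlap.

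Read together, 7 of the 9 genes with at least 20 UMIs per suffix in the gates compared (Flt3, Dntt, Rag2, Il7r, Satb1, Cd52 and Ighm) were at least 2-fold higher in the CD150-low CD48-high gate than in the CD150-high CD48-low gate in both suffixes, and 0 were 2-fold lower. Of all 12336 genes with that many UMIs, 5.12% were higher and 5.87% lower by the same rule. All 7 called genes had under 20 UMIs in the CD150-high CD48-low gate of at least 1 suffix (Rag2, Il7r and Dntt in both, Flt3, Satb1 and Cd52 in suffix 2, Ighm in suffix 1), so there they passed the minimum through the gate where they were high, and their count and median are descriptions. Rag1 did not reach the minimum, and Notch1 and Ikzf1 reached it but not the 2-fold difference in both suffixes. The median log2 ratio of the 9 genes was 3.46 and 5.41, against 0.00 and 0.05 over all 12336 genes, with genes at 0 in a gate set at their bound. The CD150-low CD48-low gate was compared with the same CD150-high CD48-low cells, and here 3 of 7 genes (Flt3, Satb1 and Cd52) were higher, with a background of 0.977%. Their ratios were 11.3 and 8.31 for Flt3, 5.38 and 4.57 for Satb1, and 6.06 and 10.2 for Cd52 without the immunoglobulin-rich cells. Dntt was at 28.8 (9.57 to 142) in suffix 1 and 1.14 (0.294 to 3.96) in suffix 2. In the CD150-high CD48-high gate, again against the same cells, 4 of 7 were higher (Flt3, Dntt, Satb1 and Cd52), with a background of 2.79%. Both counts share the limit given above, since the called genes had under 20 UMIs in the CD150-high CD48-low gate of suffix 2, and Dntt of both suffixes.

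Genes of other programmes differed between the same gates. The 6 cell cycle genes of the list Mki67, Top2a, Ube2c, Birc5, Cdk1 and Ccnb1 were higher in the CD150-low CD48-high gate by the 2-fold rule (6 of 6), with a summed level of 197 and 23.9 CPM in the CD150-high CD48-low gate and 963 and 897 CPM in the CD150-low CD48-high gate. Of 8 myeloid genes 6 were higher, and of 10 stem cell genes 7 were lower. All 6 of these myeloid genes, and the cell cycle genes Mki67, Ube2c, Birc5 and Ccnb1 in suffix 2, had under 20 UMIs in the CD150-high CD48-low gate of at least 1 suffix, so both counts are descriptions. Their part in the levels of the 10 genes was not tested.

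The wider lymphoid list holds 54 other genes, of which 36 had enough UMIs in this comparison. Of these, 9 were at least 2-fold higher in the CD150-low CD48-high gate in both suffixes (among them Ly6d, Runx3, Cd37, Cd79a, Blnk, Mzb1, Lck and Nkg7) and 4 were lower (Foxo1, Hes1, Gata3 and Zbtb16), beside the 5.12% and 5.87% of all genes. Of the named higher genes, all but Runx3 and Cd37 had under 20 UMIs in the CD150-high CD48-low gate of at least 1 suffix and passed the minimum there through the gate where they were high, so the count is a description. The median log2 ratio over the 36 was 0.42 and 0.72. Runx3, a Runt-domain factor, had a ratio of 3.34 and 9.16, Cd37, a tetraspanin of lymphocytes, of 2.41 and 7.34, and Lck, a kinase of T cell receptor signalling, of 3.47 and 2.77. Hes1, a target of Notch signalling, was at 0.255 and 0.323, and Foxo1, which activates Il7r and the Rag genes in B cell progenitors, at 0.392 and 0.268. Without the immunoglobulin-rich cells 6 were higher, with Ly6d, Cd79a and Mzb1 no longer among them. Genes of the B and T lineage lists ranged widely. Pax5 had no UMI in any gate, and Cd3e and Il2ra none in any gate without the immunoglobulin-rich cells. Cd79b, a chain of the B cell receptor complex, had 774 and 1260 UMIs in the CD150-low CD48-high gate, with a ratio to the CD150-high CD48-low gate of 1.07 and 1.

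The cells were next ordered by their own Flt3 UMIs, into classes of 0, 1 to 2 and 3 or more, which held 1791, 967 and 1298 cells without the immunoglobulin-rich cells. Flt3 defined these classes and is not counted among their results. The median depth was 13438, 14767 and 19927 UMIs per cell, so deeper cells enter higher classes, and levels are given in CPM and the order again after thinning. Dntt was at 8.30, 47.4 and 552 CPM over the classes in suffix 1 and at 3.62, 39.9 and 507 CPM in suffix 2. Satb1 was at 20.9, 54.0 and 164 CPM and at 11.9, 54.7 and 163 CPM. Cd52 was at 78.4, 169 and 270 CPM and at 50.7, 199 and 353 CPM. In the top Flt3 class the intervals of the suffixes overlapped for Satb1 and did not for Dntt.

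Ighm was at 6.38, 23.6 and 190 CPM in suffix 1 and at 14.9, 17.2 and 165 CPM in suffix 2. With the immunoglobulin-rich cells its direction turned, since 8 of those 12 cells had no Flt3 UMI, and the ratio of the top class to class 0 was 0.140 and 0.209 with them and 29.8 (21.8 to 41.8) and 11.1 (9.81 to 12.5) without them. Ikzf1 was at 81.1, 101 and 148 CPM and at 69.0, 89.0 and 121 CPM, and Notch1 at 22.5, 34.1 and 58.8 CPM and at 19.4, 20.6 and 49.0 CPM. Of the rare genes, Rag2 was at 0, 0.296 and 6.30 CPM and at 0.101, 0.423 and 4.61 CPM. Il7r was at 0, 0 and 8.06 CPM and at 0.553, 0 and 7.47 CPM, and Rag1 at 0, 0 and 0.911 CPM and at 0, 0 and 0.279 CPM.

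By the 2-fold rule on all kept cells, 6 of the 8 other genes with enough UMIs were higher at 3 or more Flt3 UMIs than at 0 in both suffixes (Dntt, Rag2, Il7r, Satb1, Cd52 and Notch1), with a background of 2.37%, and 7 without the immunoglobulin-rich cells, which adds Ighm. Rag2, with 0 and 2 UMIs at 0 Flt3 UMIs, and Il7r, with 0 and 11, passed the minimum through the top class, so this count too is a description. The ratio was 67.2 (51.2 to 90) and 141 (112 to 181) for Dntt, 7.91 (6.63 to 9.50) and 13.9 (12.1 to 16.0) for Satb1, 2.60 and 4.01 for Cd52 (3.45 and 6.95 without the immunoglobulin-rich cells), 2.64 and 2.54 for Notch1, and 1.85 and 1.75 for Ikzf1. Rag2 was at least 13.3-fold higher in suffix 1 and at 46.1 (12.3 to 388) in suffix 2, and Il7r at least 17.0-fold higher and at 13.6 (7.29 to 28.0). Within the CD150-low CD48-high gate, without the immunoglobulin-rich cells, the ratio was 21.6 and 79.4 for Dntt, 4.54 and 7.71 for Satb1, 2.80 and 2.98 for Notch1, and 1.51 and 1.39 for Ikzf1. For Cd52 it was 1.80 and 3.36, so Cd52 was not called there. Over all kept cells, levels stepped up over all 3 classes in both suffixes for 6 of the 8, against a background of 17% of 12337 genes. In the wider lymphoid list 4 of 36 genes were higher and 4 lower at 3 or more Flt3 UMIs than at 0, with a median log2 ratio of 0.19 and 0.06, and 5.14% of all genes were lower by this rule. Of the higher genes, Ccr9 and Ccr7 had 0 UMIs at 0 Flt3 UMIs, and Blnk 8 in suffix 1, without the immunoglobulin-rich cells. They passed the minimum through the top class, so this count is a description. Ly6d, among the 4 lower, was at 0 and 0.252 CPM at 0 Flt3 UMIs and at 1.89 and 0.279 CPM at 3 or more without the immunoglobulin-rich cells, so it was not lower without them. Of the other lists, 7 of 7 erythroid and megakaryocyte genes and 6 of 10 stem cell genes were lower, and 3 of 6 cell cycle genes were higher, with a summed cell cycle level of 553 and 342 CPM at 0 and 1065 and 1137 CPM at 3 or more. Their part in the levels of the 10 genes was not tested.

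Each gene was set as a percent of its own level at 3 or more Flt3 UMIs, over both suffixes and without the immunoglobulin-rich cells. At 0 Flt3 UMIs Ikzf1 was at 53.5%, Notch1 at 37.3%, Cd52 at 18.4%, Satb1 at 8.59%, Ighm at 7.24%, Il7r at 5.42%, Rag2 at 1.40%, Dntt at 0.895% and Rag1 at 0%. The order in the next class therefore includes the level of cells without a Flt3 UMI, and is not an order of rise or of time. At 1 to 2 Flt3 UMIs Ikzf1 was at 70.0%, Cd52 at 60%, Notch1 at 48.7%, Satb1 at 33.3%, Ighm at 11.2%, Dntt at 8.12%, Rag2 at 6.79%, and Il7r and Rag1 at 0%. Each suffix had this order, except that in suffix 2 Rag2 (9.19%) was above Dntt (7.86%). Within the CD150-low CD48-high gate alone the values over both suffixes were 70.1%, 67.9%, 48.8%, 36.2%, 12.8%, 9.71% and 8.33% for the genes above 0, in the same order. By suffix, Cd52 (76.4%) was there above Ikzf1 (67.7%) in suffix 1, and Rag2 (10.3%) above Dntt (8.73%) in suffix 2. After thinning to 9000 UMIs, with the classes taken anew, the percentages were 77.5% for Ikzf1, 63.4% for Cd52, 54.2% for Notch1, 47.9% for Satb1, 31.5% for Ighm and 28.9% for Dntt over both suffixes. By suffix, Notch1 (69.6%) was then above Cd52 (64.0%) in suffix 1, and Satb1 (44.6%) above Notch1 (42.5%) in suffix 2, so neither suffix kept the pooled order. Il7r (25.1%), Rag1 (23.5%) and Rag2 (22.5%) then lay close to Dntt, and Il7r and Rag1 were no longer at 0 in the middle class. Thinning also moved cells between the classes, with 692 cells left at 3 or more Flt3 UMIs, and the parts of depth and of class membership cannot be told apart. No order among Ighm, Dntt, Il7r, Rag1 and Rag2 can be read at this depth.

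Finer classes of Flt3 UMIs (0, 1, 2, 3 to 4, 5 to 8, and 9 or more) resolved the top class. The 321 cells with 9 or more Flt3 UMIs, at a median of 27472 UMIs per cell, held 102 of the 115 Il7r UMIs of suffix 1 and 86 of the 118 of suffix 2. Il7r was at 0.485, 2.07 and 21.1 CPM over the top 3 of these classes in suffix 1 and at 0, 4.06 and 21.6 CPM in suffix 2. Rag2 was at 1.21, 1.88 and 15.5 CPM and at 1.93, 1.74 and 11.8 CPM, so it too was concentrated in the last class. Rag1 had 10 of its 13 UMIs in the last class in suffix 1 and 3 of 4 in suffix 2. Dntt was at 189 and 145 CPM at 3 to 4 Flt3 UMIs, at 461 and 388 CPM at 5 to 8, and at 963 and 1133 CPM at 9 or more. These levels were not thinned, so no order among Dntt, Il7r, Rag1 and Rag2 can be read from them either. Cd52 differed, with 282 and 394 CPM at 5 to 8 and 295 and 392 CPM at 9 or more. Notch1 stayed between 18.6 and 37.6 CPM up to 4 Flt3 UMIs and was at 55.6 and 46.6 CPM at 5 to 8 and 82.6 and 80.6 CPM at 9 or more.

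**Figure D2:**
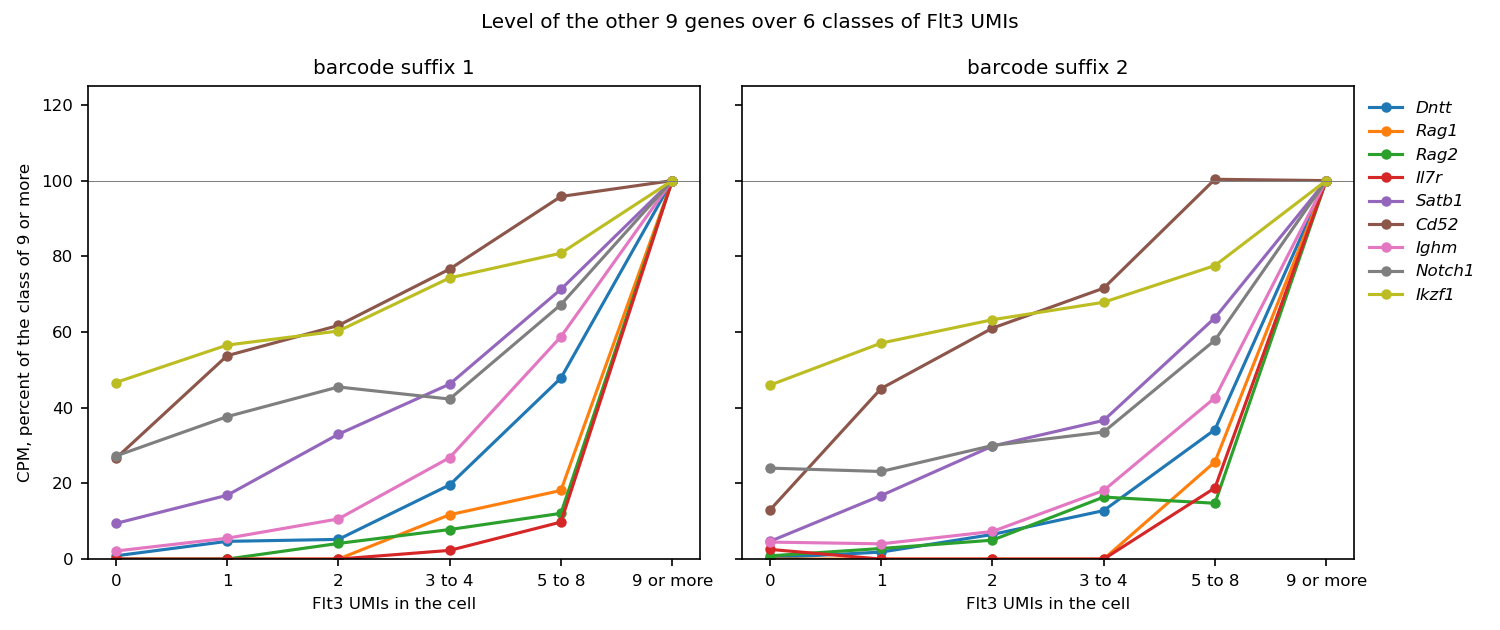
Level of the other 9 genes over 6 classes of Flt3 UMIs per cell (horizontal axis), as a percent of the gene's own CPM at 9 or more Flt3 UMIs (vertical axis, linear), without the immunoglobulin-rich cells, for suffix 1 on the left and suffix 2 on the right. Points are sums over the cells of a class and the gray line marks 100%. Ikzf1 and Cd52 lie highest from 1 Flt3 UMI on, and Rag1, Rag2 and Il7r stay under 30% up to 5 to 8 Flt3 UMIs.

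Of the 69 cells with an Il7r UMI, 68 also had a Flt3 UMI and 58 had 9 or more. The cell without Flt3 lay in the CD150-low CD48-high gate of suffix 2 and held all 11 Il7r UMIs of class 0, which is why Il7r was above 0 there. It had 0 UMIs of Dntt, Rag1 and Rag2, and 3 of Kit. Of genes known from innate lymphoid and T cells it had 21 UMIs of Id2, 14 of Nkg7, 6 of Lck, 4 of Tcf7, 1 of Gata3, 1 of Thy1 and 0 of Zbtb16, Cd3e and Il2ra. Nkg7 was common in that gate, with 6222 UMIs in suffix 2.

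The gates and the Flt3 classes overlapped unevenly. Of the CD150-low CD48-high cells, 63.5% and 36.7% had 3 or more Flt3 UMIs, of the CD150-low CD48-low cells 27.9% and 0.800%, of the CD150-high CD48-high cells 22.0% and 5.81%, and of the CD150-high CD48-low cells 0 of 172 and 0 of 383. In suffix 2 the CD150-low CD48-low gate therefore held almost no cells of high Flt3, while in suffix 1 it held many.

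Splitting the cells of a suffix into 5 bins by each tag (237 to 390 cells a bin in suffix 1 and 466 to 549 in suffix 2), without the immunoglobulin-rich cells, gave the same picture on a finer scale. Dntt was at 655, 466, 229, 102 and 28.7 CPM from the lowest to the highest bin of the CD150 tag in suffix 1 and at 403, 285, 107, 9.12 and 6.05 CPM in suffix 2. From the lowest to the highest bin of the CD48 tag it was at 18.8, 62.1, 150, 384 and 608 CPM in suffix 1 and at 1.27, 3.35, 25.1, 237 and 409 CPM in suffix 2. Flt3 was at 309 CPM in the lowest and 41.8 CPM in the highest CD150 bin in suffix 1, and at 206 and 11.7 CPM in suffix 2. Over the CD48 bins Flt3 went from 84.9 to 254 CPM and from 6.82 to 185 CPM. Ikzf1 spanned less, from 145 to 81.6 CPM and from 106 to 51.6 CPM over the CD150 bins. Dntt had the widest range of the 7 genes plotted in both tags and both suffixes, and Dntt and Flt3 were lowest where CD150 was highest and where CD48 was lowest.

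**Figure D3:**
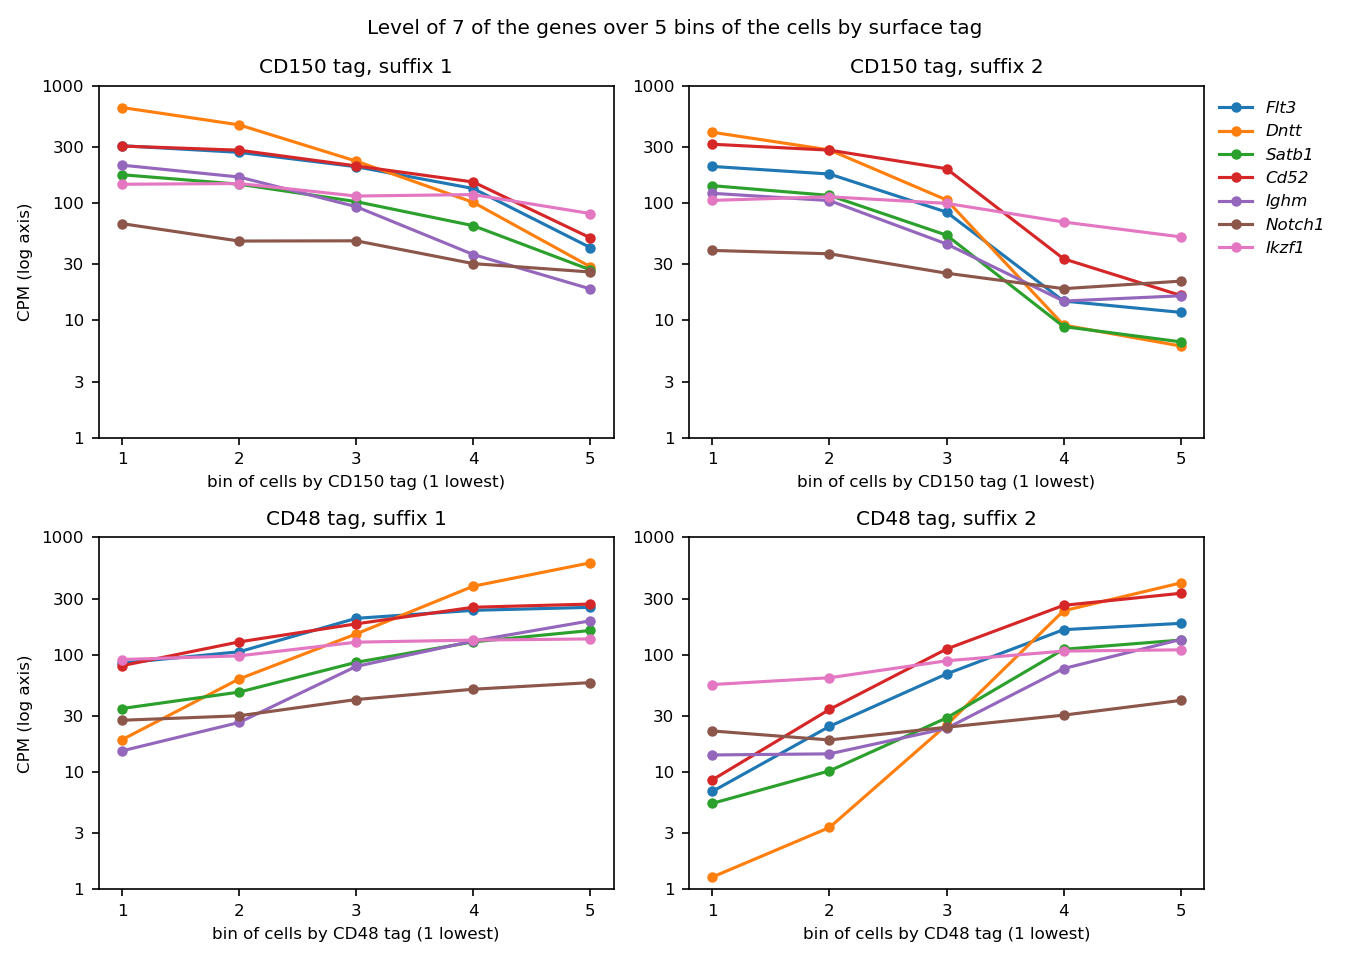
Level in CPM (vertical axis, log scale) of 7 of the genes over 5 bins of the cells by CD150 tag (upper panels) and CD48 tag (lower panels), from lowest (1) to highest (5) on the horizontal axis, for suffix 1 on the left and suffix 2 on the right, without the immunoglobulin-rich cells. Dntt spans the widest range, from 1.27 to 409 CPM over the CD48 bins of suffix 2, and Notch1 and Ikzf1 the narrowest.

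Within single cells the genes were found together. After thinning to 9000 UMIs, 3813 cells without the immunoglobulin-rich cells were compared, over both suffixes. Of the 924 cells with Dntt, 85.1% (82.6% to 87.3%) had Flt3, against 34.9% of the cells without Dntt. Of the 1794 cells with Flt3, 43.8% (41.5% to 46.1%) had Dntt, against 6.84% of those without Flt3, so most Dntt cells had Flt3 while under 50% of Flt3 cells had Dntt. The 40 cells with Il7r had Flt3 in 97.5%, Dntt in 97.5%, Ighm in 95% and Rag2 in 25%. Of the 46 cells with Rag2, 95.7% had Flt3, 87.0% had Dntt, 21.7% had Il7r and 2 cells had Rag1. All 11 cells with Rag1 had Flt3, Dntt, Satb1 and Ighm. Cells with Rag1, Rag2 or Il7r thus held Flt3 and Dntt in 87.0% or more, whereas any of these 3 genes was found in at most 27.3% of the cells with another. With only 11, 46 and 40 cells holding Rag1, Rag2 and Il7r, these low shares are largely set by how rarely the genes were detected.

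**Figure D4:**
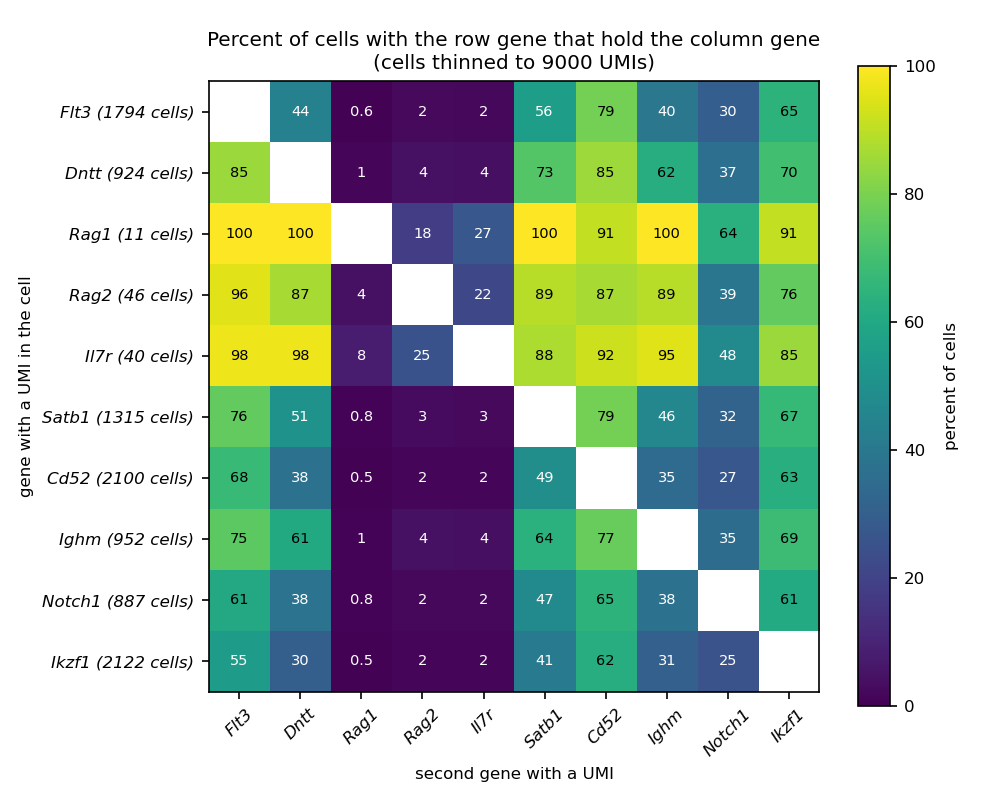
Percent of the cells with a UMI of the row gene that also held a UMI of the column gene (color and printed number, 0 to 100), over 3813 cells thinned to 9000 UMIs without the immunoglobulin-rich cells, both suffixes together. The number of cells with the row gene stands beside its name. The rows of Il7r, Rag1 and Rag2 are at 87.0 or more under Flt3 and Dntt, whereas the columns of these 3 genes are at most 27.3 in every other row. The few cells that hold these 3 genes limit their columns.

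Counting how many of the 10 genes had a UMI in a cell, 5 or more were found in 60.8% and 35.8% of the CD150-low CD48-high cells, 20.6% and 4.56% of the CD150-high CD48-high cells, 13.3% and 0% of the CD150-low CD48-low cells, and 0% of the CD150-high CD48-low cells in either suffix. Thinned, the shares were 44.6% and 22.6%, 7.77% and 0.840%, 8.88% and 0%, and again 0% in the last gate, where no thinned cell held more than 3 of the genes. The median CD150-high CD48-low cell held 1 of the 10 genes in both suffixes, and the median CD150-low CD48-high cell 5 and 4.

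Across cells, the correlation of log counts per 10000 UMIs (Pearson's r, 1522 and 2534 cells without the immunoglobulin-rich cells) was highest for Dntt with Ighm, at 0.76 and 0.70. It was 0.57 and 0.66 for Flt3 with Satb1, 0.57 and 0.64 for Dntt with Satb1, 0.55 and 0.63 for Flt3 with Dntt, and 0.51 and 0.64 for Flt3 with Cd52. Rag2 with Il7r was at 0.52 and 0.18. Cells of a suffix share a library, and r over sparse counts also carries depth, so these values are descriptions.

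Among the 12382 other genes with a UMI in at least 1% of cells, H2afy, which encodes the histone variant macroH2A1, had the highest mean r with 6 of the 10 genes. Its r was 0.64 and 0.70 with Flt3, 0.62 and 0.56 with Dntt, 0.59 and 0.63 with Satb1, 0.58 and 0.71 with Cd52, 0.62 and 0.47 with Ighm, and 0.30 and 0.29 with Ikzf1. Next came Emb and Plac8 for Flt3, BC035044 and Bex6 for Dntt, BC035044 and Emb for Satb1, Plac8 and Cd34 for Cd52 and for Ikzf1, and BC035044 and Ncf1 for Ighm. Notch1 was most like Emb (0.30 and 0.23), H2afy and Il12a. The rare genes had a set of their own, with Cox6a2 (0.34 and 0.54), Cmah and Arpp21 for Il7r, Arpp21 (0.24 and 0.22), Cox6a2 and Cmah for Rag1, and Clec12a (0.27 and 0.31), Cnn3 and Arpp21 for Rag2.

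The suffixes differed within the CD150-low CD48-high gate for most of the genes. Without the immunoglobulin-rich cells, the level in suffix 2 divided by that in suffix 1 was 0.573 (0.549 to 0.597) for Flt3, 0.559 (0.541 to 0.576) for Dntt, 0.558 (0.529 to 0.589) for Ighm, 0.611 (0.558 to 0.668) for Notch1, 0.701 (0.664 to 0.739) for Satb1 and 0.761 (0.722 to 0.803) for Ikzf1. For the rare genes it was 0.598 (0.459 to 0.781) for Il7r, 0.446 (0.323 to 0.615) for Rag2 and 0.210 (0.0488 to 0.709) for Rag1. Cd52 differed least, at 0.961 (0.927 to 0.997). The tag thresholds differ between the suffixes, a suffix is 1 library of 1 age group, and age, library and gate cannot be told apart here.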

How the data were processed

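The authors aligned the reads of both libraries with Cell Ranger 3.1.0 and combined them with its aggregation step, which by the methods of the study normalized the libraries, so depth before that step is not known here. They deposited whole-number UMI counts per gene and cell. Surface tags were counted by the authors with CITE-seq-Count and deposited as other values on a log10 scale. From the deposited counts, UMIs were summed over the cells of a group and divided by their total (CPM). The 10 genes and the gene lists were chosen with earlier results of these data known. A gene was called at a CPM ratio of 2 or more, or 0.5 or less, within both suffixes, given at least 20 UMIs per suffix in the groups compared. A group at 0 was set at 3 counts. Intervals (95%) are exact Poisson, conditional binomial and Clopper-Pearson. Named genes were all members, the 3 genes of highest mean r with each and genes of the lists past the call rule. Cd79b, Pax5, Cd3e, Il2ra, Igkc, Ighd and the genes given for single cells were chosen after their values were seen. Fine Flt3 classes, bins of the tags, the thinned order and likeness without immunoglobulin-rich cells were added after the data were seen. Levels are not compared between genes, since 3′ counts differ in capture. Doublets were neither called nor removed. Promoter windows are from RefSeq. Python 3.11.15, NumPy 2.4.6, SciPy 1.17.1 and pandas 2.3.3 were used, and the calls were tested on simulated data. No column of per-sample values was left unmapped. Some genes of the lists are not reported here.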

Additional observations from a re-analysis of the deposited data

How the results depend on the processing

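Of 198 ratios of single genes recomputed over 15 alternative settings, 196 kept their direction, 110 of them within the interval of the value given, and 2 reversed. The Cd52 ratio of the top Flt3 class over class 0, 3.39 over both suffixes, was 0.759 with over 2500 genes and under 5% mitochondrial UMIs per cell, a filter that leaves 372 cells. That of Ighm, 0.191, was 13.8 without cells of over 10% immunoglobulin UMIs. The 3 genes higher in the CD150-low CD48-low gate became 5 within suffix 1 and 5 with gates at the medians. The 9 genes of the wider lymphoid list higher in the CD150-low CD48-high gate became 5 under the stricter cell filter and 16 within suffix 2. The cause was not tested. The 7 members higher in that gate ranged from 5 to 8, losing Rag2 and Il7r under the stricter cell filter, with gates at the 90th and 10th percentiles and with gates over both suffixes together, and Rag2 after thinning. The 6 members higher at 3 or more Flt3 UMIs ranged from 4 to 7, and the 6 that stepped up over the classes also from 4 to 7. Counts limit Rag1, Rag2 and Il7r, with 17, 164 and 233 UMIs in all kept cells. No paired analysis was possible because each age group has 1 library and no test was run.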

Other observations

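The 82 kept cells without tag values, at a median of 10143.5 UMIs per cell, entered no gate. Over both suffixes they held Flt3 at 96.6 CPM (76.9 to 120), Dntt at 9.31 CPM (4.02 to 18.3), Satb1 at 36.1 CPM, Cd52 at 111 CPM, Ighm at 18.6 CPM, Notch1 at 27.9 CPM and Ikzf1 at 97.7 CPM. Rag1, Rag2 and Il7r had 0 UMIs there, which allows a share of up to 3.66% of these cells with a UMI.

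The antibody against CLCA3A1 was not part of the gates. Splitting the CD150-high CD48-low cells of each suffix at their median of 25 and 214 CLCA3A1 tags, a split added after the data were seen, the ratio of the upper to the lower part was 0.497 (0.269 to 0.893) in suffix 1 and 1.60 (0.481 to 6.07) in suffix 2 for Cd52. For Ikzf1 it was 0.585 (0.418 to 0.813) and 1.07 (0.837 to 1.38), and for Flt3 0.458 (0.191 to 1.02) and 0.740 (0.179 to 2.91). It was 0.845 (0.352 to 2.01) and 0.888 (0.237 to 3.32) for Satb1, 1.37 (0.754 to 2.55) and 1.13 (0.772 to 1.65) for Notch1, and 1.37 (0.326 to 6.62) and 1.37 (0.814 to 2.33) for Ighm, while Dntt, Rag1, Rag2 and Il7r had at most 8 UMIs in these cells of either suffix. The difference between the suffixes was not tested.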
